A study of Mus musculus with 14 samples.

Results

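The melanocyte pigment genes are 10 of the 56953 genes in the deposited count table, taken by symbol: Tyr, Tyrp1, Dct, Pmel, Mlana, Slc45a2, Oca2, Kit, Mitf and Sox10. All 10 were in the table, and 9 passed the filter on low counts that left 16027 genes for testing. Oca2 did not pass, with 78 reads over the 14 libraries. RNA from mouse skin was sequenced as tags from the 3′ ends of messenger RNAs, in 6 groups. Knockout (KO) mice carried NEDD8fl/fl, a floxed Nedd8 on both chromosomes, and the K14-CreERT recombinase, which keratinocytes express and which is switched on by an inducing treatment, given on 5 days before the start. KO skin with imiquimod (IMQ) gave 2 libraries and KO skin with DMSO gave 3. Mice with the same NEDD8fl/fl alleles and no K14-CreERT, called Cre-negative here, gave 2 libraries with IMQ and 3 with DMSO. C57BL/6J wild-type (WT) mice gave 2 libraries with IMQ and 2 with DMSO. IMQ was a cream with 5% imiquimod, put on daily from day 0 to day 7, which inflames mouse skin. The labels give skin of the back or the right ear for the series, not for each library, and give no age, coat colour or hair cycle stage. The labels give no induction for Cre-negative or WT mice, so the inducing treatment and the K14-CreERT genotype cannot be told apart. No label ties a library to an animal, and p-values measure spread between libraries, which may be technical. The strain of the NEDD8fl/fl mice is not in the labels, so genotype and strain cannot be told apart in comparisons with WT skin.

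Melanin is made in melanosomes, organelles of the melanocyte, and is handed on to keratinocytes of the epidermis and the growing hair. TYR, the tyrosinase that starts the synthesis, works with the related enzymes TYRP1 and DCT on melanosome fibrils built from PMEL. MITF is the transcription factor that switches these genes on, SOX10 acts above MITF in the neural crest lineage, and KIT is the receptor through which the keratinocyte factor KITL keeps melanocytes alive. Most melanocytes of mouse trunk skin sit in hair follicles. KIT and MITF are also used by mast cells, and SOX10 by Schwann cells.

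MITF is known to bind the E-box CATGTG, and melanocyte promoters often carry it with a leading T, as TCATGTG. The 250 bases before the start are shown for Tyr, Tyrp1 and Dct, 3 enzyme genes that varied together across the libraries, because each of these windows holds the motif. The sequences are from RefSeq on GRCm38.p6 and run 5′ to 3′ on the strand of the gene, and capitals mark TCATGTG or its reverse complement. The windows are chr7:87493513-87493762 on the minus strand for Tyr, chr4:80833963-80834212 on the plus strand for Tyrp1 and chr14:118052247-118052496 on the minus strand for Dct.
Tyr: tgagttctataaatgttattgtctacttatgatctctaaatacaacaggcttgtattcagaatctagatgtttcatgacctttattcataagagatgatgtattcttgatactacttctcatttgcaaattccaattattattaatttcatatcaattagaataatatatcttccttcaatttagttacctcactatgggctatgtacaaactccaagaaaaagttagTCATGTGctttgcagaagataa
Tyrp1: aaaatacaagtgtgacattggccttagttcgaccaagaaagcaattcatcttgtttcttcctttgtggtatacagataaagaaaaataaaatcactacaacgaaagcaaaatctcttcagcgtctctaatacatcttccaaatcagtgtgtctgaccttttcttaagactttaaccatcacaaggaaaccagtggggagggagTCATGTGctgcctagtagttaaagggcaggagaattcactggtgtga
Dct: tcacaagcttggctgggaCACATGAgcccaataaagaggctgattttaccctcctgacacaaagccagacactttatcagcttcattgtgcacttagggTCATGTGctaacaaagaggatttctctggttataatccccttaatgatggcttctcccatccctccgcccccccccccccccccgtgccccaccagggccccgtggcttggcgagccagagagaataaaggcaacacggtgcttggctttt
Counted from the start, TCATGTG lay at -22 to -16 in Tyr and at -47 to -41 in Tyrp1. Dct held it at -151 to -145 and, on the other strand, at -232 to -226. RefSeq promoters were found for 6 of the 10 genes, with 9 start regions. The windows of Kit and Mitf held neither CATGTG nor CACGTG on either strand, and that of Oca2 held CATGTG alone, at -186 to -181 on the other strand. Of 32817 promoter windows of the same length, 3.25% held TCATGTG, 12.3% held CATGTG, which lies inside it, and 6.02% held CACGTG. A match is a stretch of letters and not a measured binding site.

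Total counts ran between 5552954 and 34362477 per library, and 18S ribosomal RNA took 3.84% to 19.1% of them, most in Cre-negative IMQ replicate 2 and KO DMSO replicate 1. Nedd8 averaged 229 ± 111 CPM in KO IMQ skin and 388 ± 104 CPM in Cre-negative IMQ skin (SD, n = 2 each), and 226 ± 129 CPM in KO DMSO skin against 313 ± 40.0 CPM in Cre-negative DMSO skin (n = 3 each). Neither difference passed the threshold, by the quasi-likelihood test of edgeR, adjusted by Benjamini-Hochberg over all tested genes (adjusted p = 0.33 and 0.40), and the 3′ tag may lie outside the deleted part. WT DMSO skin averaged 237 ± 46.8 CPM (SD, n = 2), and KO DMSO skin did not differ from it by the same test (adjusted p = 0.93). Xist and Y-linked reads marked all KO IMQ and Cre-negative IMQ libraries as male, all KO DMSO and WT libraries as female, and 2 of the 3 Cre-negative DMSO libraries as male. Sex therefore did not differ between KO and Cre-negative skin with IMQ, and it differed between most of the libraries with DMSO. Only Cre-negative DMSO skin held both sexes, so a sex term in the model rests on its 1 female library. WT DMSO replicate 2 stood apart: 21 genes of the growing hair follicle summed to 7915 CPM there, against 163 CPM in WT DMSO replicate 1, and its values are marked wherever they decide a result.

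All levels here are CPM, read counts relative to the library total after TMM scaling, and tag levels of different genes are not compared. Dct, the dopachrome tautomerase (ENSMUSG00000022129.5, chr14:118250202-118289597 on the minus strand of GRCm39), gave 76.8% to 91.9% of the reads of Tyr, Tyrp1, Dct, Pmel and Mlana in each library, a share of tags and not of transcripts. It stood at 84.2 and 110.3 CPM in the KO IMQ libraries, 137, 53.1 and 102 CPM with KO DMSO, 10.6 and 4.91 CPM with Cre-negative IMQ, 29.7, 23.3 and 29.6 CPM with Cre-negative DMSO, 40.0 and 13.3 CPM with WT IMQ, and 128 and 683 CPM with WT DMSO. Both Cre-negative IMQ libraries lay below all 12 others, every KO library lay above every Cre-negative one, and WT DMSO replicate 2 was the highest. By group mean the order was WT DMSO, KO IMQ, KO DMSO, Cre-negative DMSO, WT IMQ and Cre-negative IMQ. Among neighbours in this order, KO IMQ overlapped with KO DMSO skin and Cre-negative DMSO with WT IMQ skin. WT DMSO averaged 405 ± 393 CPM (SD, n = 2), an SD nearly as large as the mean. In bulk skin, fewer melanocytes and less of an RNA per melanocyte cannot be told apart.

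Tyrosinase had few reads. Tyr (ENSMUSG00000004651.7, chr7:87073979-87142720, minus strand) stood at 1.22 and 1.51 CPM with KO IMQ, 0.764, 0.485 and 0.986 with KO DMSO, 0 and 0.0673 with Cre-negative IMQ, 0.335, 0.164 and 0.219 with Cre-negative DMSO, 0.235 and 0 with WT IMQ, and 1.30 and 9.70 with WT DMSO. Tyrp1 (ENSMUSG00000005994.15, chr4:80752467-80769956, plus strand) stood at 6.85 and 10.8 CPM with KO IMQ, 1.78, 2.81 and 4.99 with KO DMSO, 0.287 and 0.0673 with Cre-negative IMQ, 0.839, 0.383 and 0.801 with Cre-negative DMSO, 0.188 and 0.312 with WT IMQ, and 2.01 and 25.1 with WT DMSO. Both enzymes were higher in all 5 KO libraries than in all 5 Cre-negative ones.

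The melanosome proteins were ordered much like the enzymes. Pmel, the fibril protein (ENSMUSG00000025359.11, chr10:128542127-128556107, plus strand), stood at 3.20 and 7.00 CPM with KO IMQ, 5.35, 2.91 and 9.95 with KO DMSO, 0.717 and 1.08 with Cre-negative IMQ, 2.68, 1.53 and 3.21 with Cre-negative DMSO, 0.942 and 1.56 with WT IMQ, and 7.83 and 71.0 with WT DMSO. Mlana, a melanosome membrane protein also known as MART-1 (ENSMUSG00000024806.5, chr19:29675224-29686034, plus strand), stood at 5.25 and 5.05 CPM with KO IMQ, 4.08, 3.20 and 3.33 with KO DMSO, 0.574 and 0.269 with Cre-negative IMQ, 1.06, 0.547 and 0.437 with Cre-negative DMSO, 2.40 and 0.468 with WT IMQ, and 3.81 and 53.7 with WT DMSO. Pmel overlapped between KO and Cre-negative skin with DMSO, and Mlana did not. The transporter gene Slc45a2 (ENSMUSG00000022243.11, chr15:11000807-11029319, plus strand) had reads in all 5 KO libraries, between 0.228 and 0.797 CPM, in 1 of the 5 Cre-negative libraries, at 0.0729 CPM, in neither WT IMQ library, and at 0.10 and 4.95 CPM in the WT DMSO libraries. Oca2, a melanosome channel protein (ENSMUSG00000030450.12, chr7:55889508-56186266, plus strand), had 0 reads in 10 libraries, and the WT DMSO group held 74 of its 78 reads, at 0.10 and 3.61 CPM.

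The receptor and the transcription factors followed other patterns. Kit (ENSMUSG00000005672.13, chr5:75735576-75817382, plus strand) stood at 5.33 and 7.08 CPM with KO IMQ, 2.29, 1.55 and 1.44 with KO DMSO, 0.287 and 0.875 with Cre-negative IMQ, 1.51, 1.70 and 2.26 with Cre-negative DMSO, 0.377 and 1.17 with WT IMQ, and 1.71 and 4.21 with WT DMSO. Mitf (ENSMUSG00000035158.16, chr6:97784013-97998310, plus strand) stood at 47.2 and 26.9 CPM with KO IMQ, 14.3, 18.9 and 15.5 with KO DMSO, 13.9 and 15.4 with Cre-negative IMQ, 39.0, 37.1 and 39.1 with Cre-negative DMSO, 12.4 and 16.1 with WT IMQ, and 29.8 and 47.2 with WT DMSO. Kit was highest in the KO IMQ libraries, and Mitf was low in KO DMSO, Cre-negative IMQ and WT IMQ skin. Sox10 (ENSMUSG00000033006.11, chr15:79039108-79049440, minus strand) had few reads, at 0.685 and 0.531 CPM with KO IMQ, 0, 0.582 and 0.536 with KO DMSO, 0 in both Cre-negative IMQ libraries, 0.503, 0.164 and 0.510 with Cre-negative DMSO, 0.330 and 0.0779 with WT IMQ, and 0.702 and 0.594 with WT DMSO. Cre-negative IMQ was the only group with no Sox10 read in any library.

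**Figure D1:**
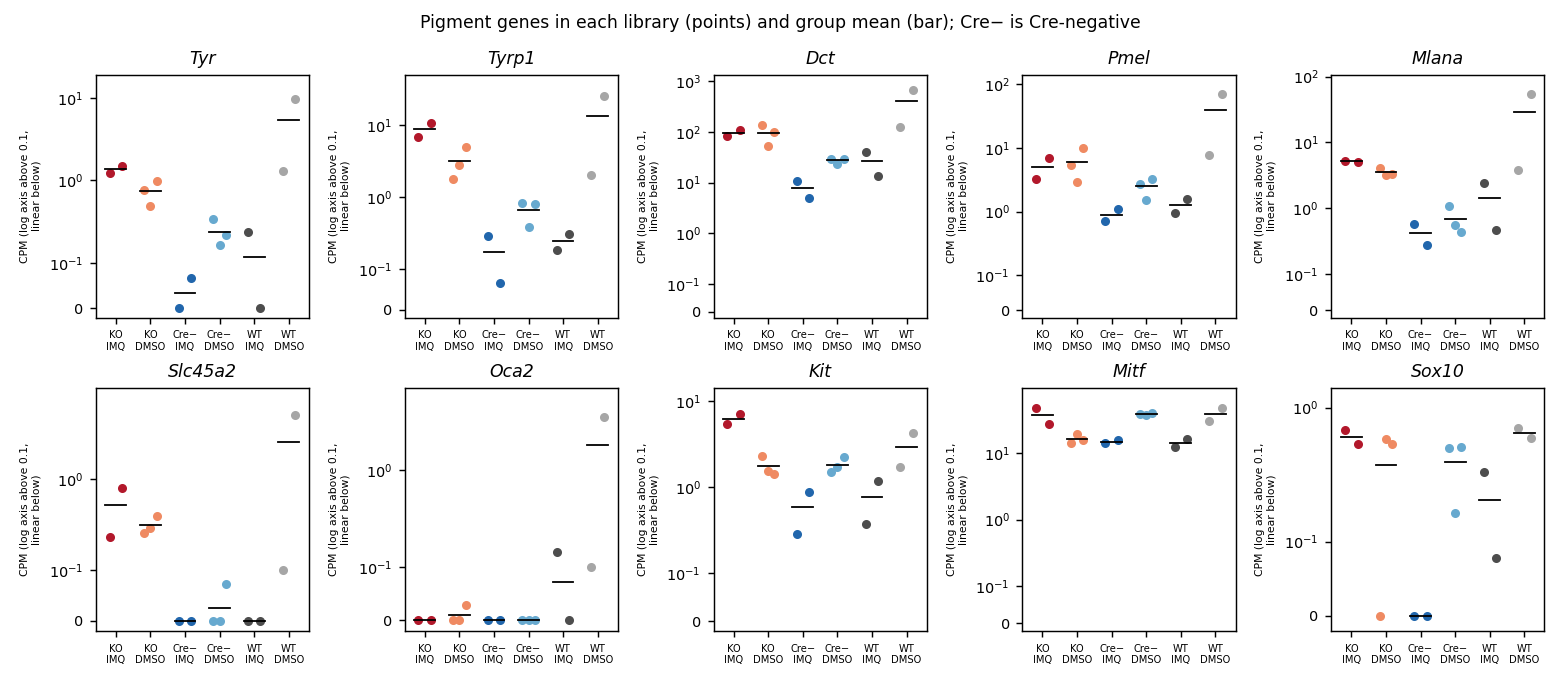
Level of each of the 10 pigment genes in CPM (log axis above 0.1, linear below) for every library (points), with the group mean as a bar. For Tyr, Tyrp1, Dct and Mlana all KO points lie above all Cre-negative points, and WT DMSO replicate 2 is the highest point of 7 genes, at 683 CPM for Dct.

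KO against Cre-negative skin with IMQ asks how the genotypes differ under inflammation, here between libraries of 1 sex. The enzymes, Mlana, Kit, Mitf and Sox10 were higher in KO IMQ than in Cre-negative IMQ skin. Of the 9 tested genes 7 were higher and 0 lower, where 11.6% of all tested genes were higher and 6.33% lower, 17.9% in all. Dct averaged 97.3 ± 18.5 CPM in KO IMQ skin and 7.76 ± 4.03 CPM in Cre-negative IMQ skin (SD, n = 2 each), a log2 fold change of 3.67 ± 0.76 (SE, adjusted p = 0.0060 by edgeR). Kit averaged 6.21 ± 1.24 CPM in KO IMQ skin and 0.581 ± 0.416 CPM in Cre-negative IMQ skin (SD, n = 2 each, 3.27 ± 0.67, adjusted p = 0.0053 by edgeR). Mlana differed by 3.71 ± 1.11 (adjusted p = 0.034) and Mitf by 1.34 ± 0.35 (adjusted p = 0.018) by the same test. Few reads lay behind other Cre-negative IMQ values. Tyrp1 had 212 reads in KO IMQ skin and 3 in Cre-negative IMQ skin, a CPM ratio of 63.1 (95% counting interval 21.3 to 309, adjusted p = 0.0053), and Tyr had 33 reads in KO IMQ skin and 1 in Cre-negative IMQ skin, a ratio of 29.5 (4.94 to 1199.5, adjusted p = 0.029). Sox10 had 15 reads in KO IMQ skin and 0 in Cre-negative IMQ skin (adjusted p = 0.029 by edgeR). With a floor of 3 reads put in place of the 0, it was 4.47-fold higher, its own counting error left out. Slc45a2, with 12 reads in KO IMQ skin and 0 in Cre-negative IMQ skin, was 3.57-fold higher with the same floor. It did not pass (adjusted p = 0.15 by edgeR), and neither did Pmel, at 2.44 ± 0.92 (adjusted p = 0.084).

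With IMQ, the median log2 fold change of the 9 genes was 3.71, against 0.02 over all tested genes. The KO and Cre-negative IMQ libraries did not overlap for any of the 9 genes, and 56.0% of all tested genes did not overlap in this comparison. The Kit call held in all 25 alternative settings, with values of 2.74 to 4.43. Without both libraries highest in 18S, which leaves 1 Cre-negative IMQ library, 1 of the genes, Kit, was called, as it was without Cre-negative IMQ replicate 2 alone. Fewer of the genes were also called without Cre-negative IMQ replicate 1, KO IMQ replicate 1 or KO IMQ replicate 2, each of which leaves 1 library in a group. The medians of the 10 genes then tested were 4.13, 3.76 and 3.57. Voom called Dct and Kit, where it called 11.2% of all tested genes. In each of these settings fewer of all tested genes were called than the 17.9% with all libraries by edgeR. All 9 kept a positive fold change in every setting that could be fitted, those included.

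Markers of other cells that use Kit, Mitf or Sox10 moved in the same comparison. Of 9 tested mast cell markers 3 were higher in KO IMQ skin, Hdc, Il1rl1 and Tpsb2, where 11.6% of all tested genes were. The 12 markers summed to 674 to 1605 CPM in KO IMQ skin and 24.4 to 27.5 CPM in Cre-negative IMQ skin. Hdc, the histidine decarboxylase that neutrophils and other myeloid cells can also express, made up most of that sum with 1450 and 621 CPM in KO IMQ skin and 14.6 and 16.6 CPM in Cre-negative IMQ skin. The mast cell protease Cpa3 stood at 3.73 and 3.36 CPM in KO IMQ skin and 2.58 and 3.50 CPM in Cre-negative IMQ skin. In the KO IMQ libraries 0 of the 12 markers were at 0, and in the Cre-negative IMQ libraries 2 and 1 were, Tpsab1 in both. Of 10 tested Schwann cell markers 3 were higher, Drp2 and Pmp22 among them, beside the same 11.6% of all tested genes. The 12 markers summed to 121 to 188 CPM in KO IMQ skin and 76.5 to 83.2 CPM in Cre-negative IMQ skin, with 1 or 2 markers at 0 in each, Pmp2 in all. The calls of Hdc and Il1rl1 held in all 19 settings run for these lists, and those of Tpsb2, Drp2 and Pmp22 ended without KO IMQ replicate 1. The part of these cells in the Kit, Mitf and Sox10 values was not tested.

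With DMSO, KO against Cre-negative skin asks what the genotypes do without IMQ. Tyrp1, Dct and Mlana were higher in KO DMSO than in Cre-negative DMSO skin, and Mitf was lower. Of the 9 tested genes 3 were higher, where 14% of all tested genes were, and 1 was lower, where 15.7% were and 29.6% were called in either direction. Dct averaged 97.2 ± 41.9 CPM in KO DMSO skin and 27.5 ± 3.65 CPM in Cre-negative DMSO skin (SD, n = 3 each), a log2 fold change of 1.82 ± 0.57 (adjusted p = 0.029 by edgeR). Tyrp1 differed by 2.32 ± 0.75 (adjusted p = 0.033) and Mlana by 2.32 ± 0.81 (adjusted p = 0.043), by the same test. Mitf averaged 16.2 ± 2.42 CPM in KO DMSO skin and 38.4 ± 1.11 CPM in Cre-negative DMSO skin (SD, n = 3 each, -1.24 ± 0.28, adjusted p = 0.0055 by edgeR).

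Tyr (1.66 ± 0.82), Pmel (1.33 ± 0.67), Slc45a2 (3.60 ± 1.60), Kit (-0.11 ± 0.50) and Sox10 (0.22 ± 0.72) did not pass with DMSO, by edgeR, with adjusted p between 0.11 and 0.90. The median of the 9 genes was 1.66 against -0.06 over all tested genes, and the groups did not overlap for 6 of the 9, where 48.3% of all tested genes did not overlap. A term for the sex read from the libraries left 0 of the 4 calls, with an adjusted p of 0.063 for Mitf, and library size alone in place of TMM left Mitf only. With the sex term 9.03% of all tested genes were called, against 29.6% without it, and the median of the 9 genes was 1.71. Leaving out any 1 of the 3 Cre-negative DMSO libraries or KO DMSO replicate 3 ended the calls of Tyrp1, Dct and Mlana, leaving out KO DMSO replicate 1 those of Dct and Mlana, while that of Mlana ended without any 1 KO or Cre-negative library and that of Mitf held without each library in turn. The mast cell markers summed to 48.8 to 66.0 CPM in KO DMSO skin and 12.1 to 26.3 CPM in Cre-negative DMSO skin, with 1 of 9 higher, Hdc, and 1 to 3 markers at 0 in each library. The Schwann cell markers summed to 96.4 to 107 CPM in KO DMSO skin and 123 to 139 CPM in Cre-negative DMSO skin, with 1 of 10 higher, Ncmap, and 1 lower. Of all tested genes 14% were higher and 15.7% lower with DMSO, so these marker counts are below the shares of all genes. The call of Ncmap ended with the sex term, with library size alone and without KO DMSO replicate 1 or 3 or any 1 Cre-negative DMSO library. The call of Hdc held in all 19 settings, and the part of either cell type in the Mitf value was not tested.

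**Figure D2:**
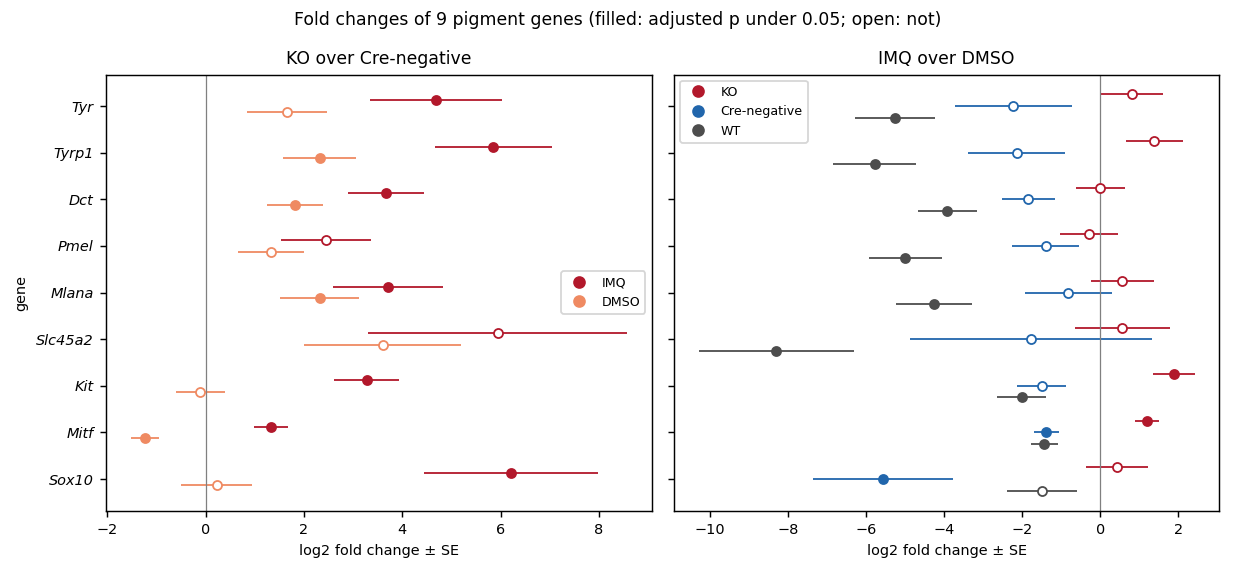
Log2 fold change ± SE of the 9 tested pigment genes for KO over Cre-negative skin (left, with IMQ and with DMSO) and for IMQ over DMSO (right, in KO, Cre-negative and WT skin), filled where the adjusted p was under 0.05. Kit stands at 3.27 with IMQ and -0.11 with DMSO between the genotypes, and Mitf has opposite signs in KO skin (1.19) and in Cre-negative skin (-1.39) for IMQ over DMSO.

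IMQ against DMSO was compared within each genotype, and these contrasts include the base of the cream. In KO skin Kit and Mitf rose, 2 of the 9 tested genes where 8.56% of all tested genes were higher, and 0 fell, where 2.52% were lower. Kit averaged 6.21 ± 1.24 CPM with IMQ (n = 2) and 1.76 ± 0.464 CPM with DMSO (n = 3) in KO skin (SD), a log2 fold change of 1.88 ± 0.54 (adjusted p = 0.039 by edgeR). Mitf averaged 37.1 ± 14.4 CPM with IMQ (n = 2) and 16.2 ± 2.42 CPM with DMSO (n = 3) in KO skin (SD), a change of 1.19 ± 0.31 (adjusted p = 0.024 by edgeR). Dct stood at 0.00 ± 0.62 and the other 6 between -0.29 and 1.39, with adjusted p of 0.25 or more by edgeR. The KO IMQ and KO DMSO libraries did not overlap for 5 of the 9 genes, where 41.4% of all tested genes did not. With a sex term 1.31% of all tested genes were called in this comparison, against 11.1% without it. All KO IMQ libraries were male and all KO DMSO libraries female, so sex and treatment cannot be told apart within KO skin, and both calls ended with a sex term. Both also ended without KO IMQ replicate 1 or KO DMSO replicate 3, and that of Kit without KO IMQ replicate 2, KO DMSO replicate 2 or any 1 of the Cre-negative DMSO libraries. The mast cell marker sums given above, 674 to 1605 CPM in KO IMQ skin and 48.8 to 66.0 CPM in KO DMSO skin, were mostly Hdc, and 2 of the 9 tested markers rose, Hdc and Il1rl1. The mast cell proteases did not pass by edgeR: Cpa3 averaged 3.55 CPM in KO IMQ skin and 3.39 CPM in KO DMSO skin, Cma1 averaged 6.24 CPM in KO IMQ and 7.78 CPM in KO DMSO skin, Mcpt4 1.63 CPM in KO IMQ and 2.82 CPM in KO DMSO skin, and Tpsb2 3.12 CPM in KO IMQ and 3.31 CPM in KO DMSO skin. The part of mast cells in the Kit and Mitf values was not tested.

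In Cre-negative skin Mitf and Sox10 fell with IMQ, 2 of the 9 tested genes where 10.1% of all tested genes were lower, and 0 rose, where 8.15% were higher. Mitf averaged 14.7 ± 1.05 CPM with IMQ (n = 2) and 38.4 ± 1.11 CPM with DMSO (n = 3) in Cre-negative skin (SD), a log2 fold change of -1.39 ± 0.33 (adjusted p = 0.011 by edgeR). Sox10 had 0 reads with IMQ and 19 with DMSO (adjusted p = 0.047 by edgeR), 2.77-fold lower with the floor of 3 reads. Dct (-1.85 ± 0.68, adjusted p = 0.075), Kit (-1.51 ± 0.63, adjusted p = 0.11) and the other 5, all with negative fold changes, did not pass the same test. The libraries did not overlap for 7 of the 9 genes, where 54.3% of all tested genes did not. The Sox10 call held without KO DMSO replicate 1 and was lost without each of the other 13 libraries in turn, and that of Mitf was lost without either Cre-negative IMQ library. With all libraries 12 of 12 skeletal muscle genes, 5 of 16 trunk HOX genes and 3 of 10 Schwann cell markers were lower in Cre-negative IMQ skin, and their part in the Mitf and Sox10 values was not tested.

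The contrasts share libraries: the DMSO libraries enter both the genotype comparison with DMSO and the IMQ comparisons. The difference between the IMQ responses of KO and Cre-negative skin was tested in the same model. Kit (3.38 ± 0.83, adjusted p = 0.012), Mitf (2.58 ± 0.45, adjusted p = 0.0025) and Sox10 (5.99 ± 2.01, adjusted p = 0.048) responded more positively in KO skin by edgeR, 3 of the 9 tested genes where 14% of all tested genes did. In the other direction 0 of 9 passed, where 9.63% of all tested genes did and 23.6% passed in either. The calls of Kit and Mitf held in all 25 alternative settings, the sex term and the omission of each library included, at 2.86 to 4.60 and 2.12 to 3.31. That of Sox10 held in 7 of 23, and its fitted values rest on Cre-negative IMQ libraries without a read. Tyrp1 (3.53 ± 1.44, adjusted p = 0.089), Dct (1.85 ± 0.90, adjusted p = 0.15) and the other 4 did not pass by edgeR, and all 9 differences were positive. The sex term rests on the 1 female library of Cre-negative DMSO skin, so a call that held with it is not free of sex.

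In WT skin the pigment genes were lower with IMQ: 8 of the 9 tested genes fell, all but Sox10, where 11.8% of all tested genes fell and 9.59% rose. The 9 genes did not overlap between WT IMQ and WT DMSO libraries, and neither did 63.7% of all tested genes. Tyrp1 (-5.78 ± 1.06, adjusted p = 0.0028), Pmel (-5.00 ± 0.93, adjusted p = 0.0031) and Dct (-3.92 ± 0.76, adjusted p = 0.0038) were among them by edgeR. So was Slc45a2, with 0 reads in WT IMQ skin and 101 in WT DMSO skin, 100 of them in replicate 2. It was 38.0-fold lower with the floor of 3 reads. Mlana (-4.27 ± 0.97, adjusted p = 0.0088), Mitf (-1.44 ± 0.35, adjusted p = 0.011) and Kit (-2.01 ± 0.63, adjusted p = 0.037) passed the same test, as did Tyr. Oca2, too low for the test, had 3 reads in WT IMQ and 74 in WT DMSO skin, 27.9-fold lower by CPM (95% counting interval 9.17 to 138), and WT DMSO replicate 2 held 73 of the 74. Without WT DMSO replicate 2, which leaves 1 WT DMSO library, 3 genes remained past the threshold by edgeR: Tyrp1 at -3.01 ± 0.81 (adjusted p = 0.039), Pmel at -2.66 ± 0.73 (adjusted p = 0.040) and Dct at -2.25 ± 0.62 (adjusted p = 0.042). Without WT IMQ replicate 1, which leaves 1 WT IMQ library, fewer of the pigment genes passed than with all libraries. The median of the 10 genes then tested was -5.17. Without that library or WT DMSO replicate 2, fewer of all tested genes passed too. Voom called 3 of the 9, where it called 18.1% of all tested genes. Markers of other tissues were lower in WT IMQ skin too: 9 of 12 skeletal muscle genes, 8 of 16 trunk HOX genes, 3 of 10 Schwann cell markers and 3 of 20 follicle genes. Without any 1 WT library fewer skeletal muscle and trunk HOX genes were called, and fewer of all tested genes were too. The part of these tissues in the pigment gene values was not tested.

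KO DMSO against WT DMSO skin gave 5 lower genes, Tyr, Dct, Pmel, Mlana and Mitf, of 9 tested, where 14.4% of all tested genes were lower and 25.6% were called in either direction, and 0 higher, where 11.3% were. The libraries did not overlap for 3 of the 9 genes, where 53.8% of all tested genes did not. Mlana stood at -3.05 ± 0.80 (adjusted p = 0.014) and Mitf at -1.25 ± 0.31 (adjusted p = 0.010) by edgeR. Without KO DMSO replicate 2, 2 passed. Without WT DMSO replicate 1, only WT DMSO replicate 2 is left as reference, and the median of the 10 genes then tested was -3.16. Without WT DMSO replicate 2, 0 of the 9 passed by edgeR, with Mlana at -0.13 ± 0.72 and Mitf at -0.88 ± 0.38 (adjusted p = 0.15). Cre-negative DMSO against WT DMSO skin gave 0 of 9 by edgeR, where 0% of all tested genes were called. The libraries did not overlap for 7 of the 9, where 30.6% of all tested genes did not. At an unadjusted p under 0.05, 6 of the 9 were lower by edgeR, DESeq2 called 6 and voom 5, all lower in Cre-negative DMSO skin. Without WT DMSO replicate 1, only WT DMSO replicate 2 is left as reference, and the median of the 10 genes then tested was -4.98. Over all genes 1120 had an unadjusted p under 0.05, and DESeq2 called 144 and voom 195. Dct stood at -3.88 ± 0.65 with all libraries and at -2.21 ± 0.56 without WT DMSO replicate 2 (adjusted p = 0.077 and 0.75 by edgeR, lower in 3 of 3 Cre-negative libraries than both WT ones). Mitf stood at -0.01 ± 0.31 with all libraries. Oca2, too low for the test, had 0 reads in Cre-negative DMSO skin and 74 in WT DMSO skin, 73 of them in replicate 2. It was 40.8-fold lower with the floor of 3 reads. KO and Cre-negative skin share these WT DMSO libraries as a reference.

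**Figure D3:**
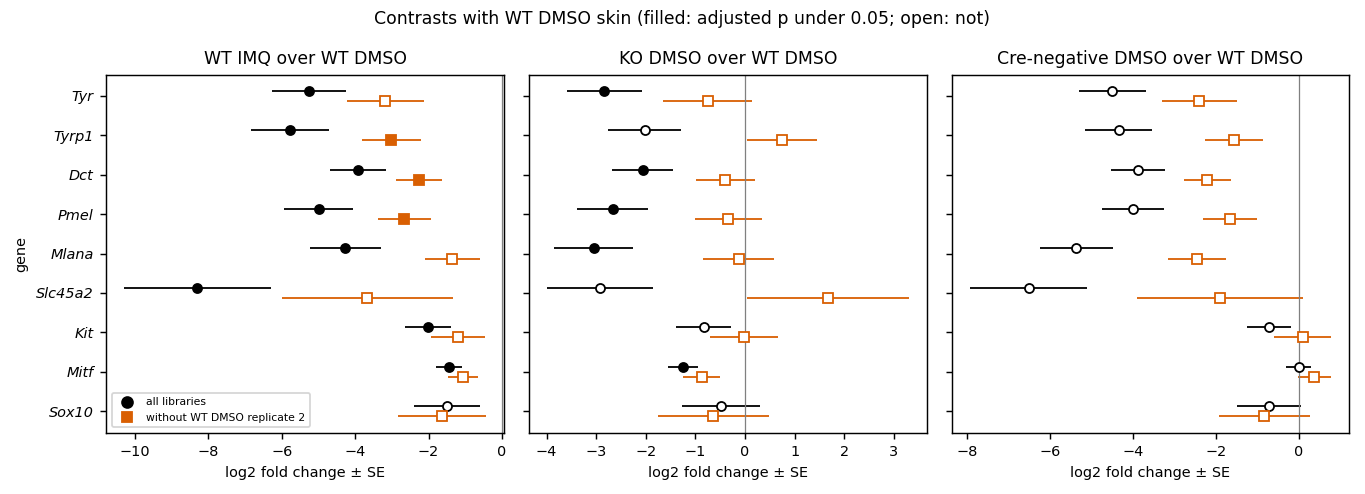
Log2 fold change ± SE of the 9 tested pigment genes in the 3 contrasts with WT DMSO skin, with all libraries (circles) and without WT DMSO replicate 2 (squares), filled where the adjusted p was under 0.05. Without that library 0 values of KO DMSO over WT DMSO skin are filled, with Dct at -0.40 and Tyrp1 at 0.74, and those of WT IMQ over WT DMSO skin stay negative.

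The pigment genes and the growing hair follicle list were set side by side, since follicle melanocytes are active in growing hair. Tyr, Tyrp1, Dct, Pmel and Mlana summed to 101 and 135 CPM with KO IMQ, 149, 62.5 and 121 with KO DMSO, 12.2 and 6.39 with Cre-negative IMQ, 34.6, 25.9 and 34.2 with Cre-negative DMSO, 43.8 and 15.7 with WT IMQ, and 142 and 843 with WT DMSO. The follicle genes summed to 75.6 to 116 CPM with KO IMQ, 116 to 172 with KO DMSO, 27.4 to 87.4 with Cre-negative IMQ, 58.6 to 186 with Cre-negative DMSO, 109 and 1133 with WT IMQ, and 163 and 7915 with WT DMSO. Of the 21 follicle genes 12, 8 and 7 were at 0 in the KO DMSO libraries and 1, 0 and 10 in the Cre-negative DMSO libraries. With IMQ 4 and 1 were at 0 in KO and 2 and 12 in Cre-negative skin. For KO over Cre-negative skin the list median log2 fold change was -3.81 with DMSO and 1.16 with IMQ, against -0.06 and 0.02 over all tested genes. In KO against Cre-negative skin 0 of 20 tested follicle genes were called with IMQ, and with DMSO 0 were higher and 3 lower, Krt25, Krt28 and Krt32, of which Krt32 held in all 19 settings and the others were lost without any 1 KO DMSO library. The fold change of Krt25 ran from -7.88 to 3.05 over the 19 settings, so its direction turned. In KO DMSO against WT DMSO skin 19 of 20 follicle genes were lower, where 14.4% of all tested genes were. Far fewer follicle genes were called without WT DMSO replicate 2, which leaves 1 WT DMSO library. Genes of deeper tissue and of body position moved too: with DMSO 10 of 12 skeletal muscle genes and 4 of 16 trunk HOX genes were lower in KO than in Cre-negative skin, where 15.7% of all tested genes were, and with the sex term 4 and 0 were called. Of all tested genes 9.03% were called in either direction with that term. With IMQ 0 of 12 and 0 of 16 were lower and 2 trunk HOX genes were higher. Of all tested genes 6.33% were lower and 11.6% higher with IMQ, so the 2 of 16 are about that share. Of 12 cartilage genes 2 could be tested, and 1 was lower with DMSO. The depth or site of the skin was not tested as a part of the pigment gene differences.

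**Figure D4:**
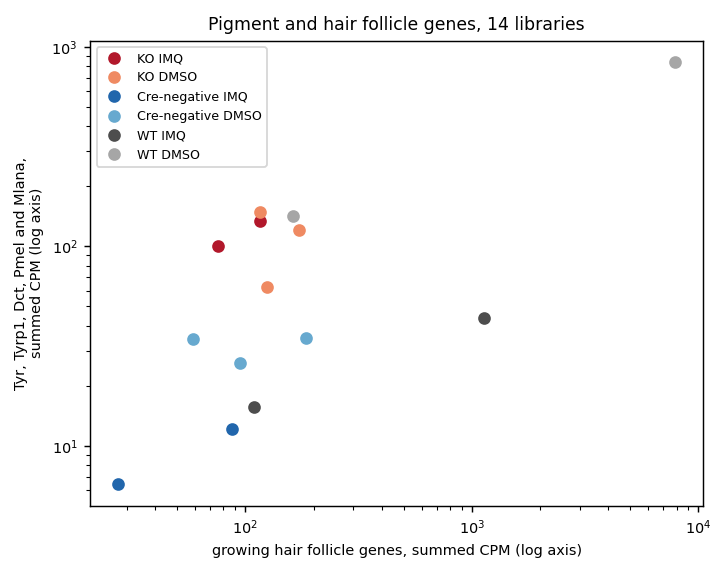
Summed CPM of Tyr, Tyrp1, Dct, Pmel and Mlana (vertical, log axis) against summed CPM of growing hair follicle genes (horizontal, log axis), 1 point per library. WT DMSO replicate 2 lies alone at the top right (843 and 7915 CPM), and the 5 KO points lie above the 5 Cre-negative ones, while their follicle sums overlap.

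Other genes of the pathway were taken from gene lists. Of 9 tested ligands and receptors of melanocytes 3 were higher in KO than in Cre-negative skin with IMQ, where 11.6% of all tested genes were. They were Met, the receptor of hepatocyte growth factor (2.35 ± 0.44, adjusted p = 0.0036), Mgrn1, a ubiquitin ligase of melanocortin signalling (1.40 ± 0.41, adjusted p = 0.029), and Kitl, the ligand of KIT (1.55 ± 0.48, adjusted p = 0.040 by edgeR). Kitl stood at 13.4 and 21.0 CPM in KO IMQ skin and 7.46 and 4.37 CPM in Cre-negative IMQ skin, and its call held in 8 of 19 settings and ended without any 1 of the 4 libraries compared, as did that of Mgrn1 without 3 of them, all but KO IMQ replicate 2. That of Met held in all 19. With DMSO Met was the only 1 of the 9 to pass (1.29 ± 0.35, adjusted p = 0.014 by edgeR). Of all tested genes 14% were higher with DMSO and 29.6% passed in either direction, so this count is not above the share of all genes. The Met call was lost with library size alone, with the sex term and without KO DMSO replicate 2 or Cre-negative DMSO replicate 2 or 3. Ednrb, the endothelin receptor of melanocytes, stood at 43.1 and 13.3 CPM with KO IMQ and 6.37, 8.35 and 4.31 CPM with KO DMSO. Its response to IMQ was 2.17 ± 0.52 in KO skin (adjusted p = 0.016), and it exceeded that of Cre-negative skin by 2.55 ± 0.75 (adjusted p = 0.027 by edgeR), calls that ended with the sex term and without KO IMQ replicate 1 or KO DMSO replicate 3. The second also ended without Cre-negative IMQ replicate 1 or Cre-negative DMSO replicate 3. Mc1r, the melanocortin receptor that favours dark melanin, did not pass between KO and Cre-negative skin with IMQ (1.93 ± 1.74) or with DMSO (2.78 ± 1.37). Edn3, Pomc and Gpr143 had too few reads for testing, and Asip was not found in the count table under that symbol.

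Of 27 tested melanosome genes 6 rose and 2 fell in KO against Cre-negative skin with IMQ, and 4 rose and 3 fell with DMSO, with list medians of 0.60 and 0.06. Of all tested genes 11.6% rose and 6.33% fell with IMQ, and 14% rose and 15.7% fell with DMSO, so the DMSO counts and the falls with IMQ are near or below the shares of all genes. Slc24a5, a melanosome ion exchanger, rose with both: it stood at 5.78 and 8.68 CPM with KO IMQ against 0.287 and 0.135 CPM with Cre-negative IMQ (5.19 ± 1.39, adjusted p = 0.021), and at 2.29, 2.62 and 3.35 CPM with KO DMSO against 0.224, 0.164 and 0.583 CPM with Cre-negative DMSO (3.15 ± 1.0, adjusted p = 0.030 by edgeR). All 5 KO libraries lay above all 5 Cre-negative ones. The call with DMSO ended with the sex term, with library size alone and without KO DMSO replicate 3 or Cre-negative DMSO replicate 1 or 2, and that with IMQ ended with voom or without any 1 of the 4 libraries. Gpnmb, a PMEL relative that macrophages also express, stood at 324 and 120 CPM with KO IMQ against 21.5 and 32.3 CPM with Cre-negative IMQ (3.04 ± 0.72, adjusted p = 0.012 by edgeR), and Hps1, of the organelle biogenesis complexes, rose by 1.79 ± 0.37 (adjusted p = 0.0059). Bloc1s3, another of those complexes, was lower in KO IMQ than in Cre-negative IMQ skin (-2.34 ± 0.62, adjusted p = 0.020 by edgeR). The calls of Hps1, Gpnmb and Bloc1s3 ended without KO IMQ replicate 1, where 0 of the 27 were called, and Gpnmb and Bloc1s3 ended without Cre-negative IMQ replicate 2 too, as did Gpnmb without Cre-negative IMQ replicate 1.

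Of the 3 small GTPases in this list, Rab27a and Rab32 were lower in KO than in Cre-negative skin with DMSO. Rab38, which like Rab32 acts in cargo delivery to melanosomes, did not pass. Rab27a, which tethers melanosomes to the cell edge and acts in other secretory cells too, stood at 6.88, 4.46 and 4.90 CPM with KO DMSO against 55.0, 44.4 and 47.9 CPM with Cre-negative DMSO (-3.21 ± 0.29, adjusted p = 8.1e-06 by edgeR). Rab32 stood at 14.5, 12.2 and 9.72 CPM with KO DMSO against 28.6, 33.6 and 40.1 CPM with Cre-negative DMSO (-1.50 ± 0.30, adjusted p = 0.0024 by edgeR). With IMQ the order was reversed, at 80.1 and 51.6 CPM in KO and 22.8 and 41.1 CPM in Cre-negative skin. The DMSO calls of Rab27a and Rab32 held in all 19 settings. Rab38 averaged 37.4 ± 17.3 CPM with KO DMSO and 42.8 ± 20.7 CPM with Cre-negative DMSO (SD, n = 3 each, adjusted p = 0.84 by edgeR). Slc7a11, the cystine transporter whose loss lightens coat colour in mice and a gene of the antioxidant response, averaged 648 CPM with KO DMSO and 2.16 CPM with Cre-negative DMSO (8.24 ± 0.86, adjusted p = 2.4e-05 by edgeR). Cd63, a tetraspanin of melanosomes and other endosomal organelles, averaged 563 CPM with KO DMSO and 182 CPM with Cre-negative DMSO (1.63 ± 0.40, adjusted p = 0.0081 by edgeR), and its call ended with the sex term.

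Of 11 tested melanocyte transcription factors 1 rose and 1 fell in KO against Cre-negative skin with IMQ, and 0 rose and 3 fell with DMSO, where 11.6% of all tested genes rose and 6.33% fell with IMQ, and 14% rose and 15.7% fell with DMSO. The IMQ counts are about those shares. Foxd3, a neural crest factor, was higher in KO IMQ than in Cre-negative IMQ skin (3.89 ± 1.04, adjusted p = 0.021 by edgeR). Tfap2a, which keratinocytes share, was lower there (-1.36 ± 0.42, adjusted p = 0.038 by edgeR). Irf4 (-2.76 ± 0.51), Tfeb (-1.42 ± 0.31) and Tfap2b (-1.30 ± 0.45) were lower in KO DMSO than in Cre-negative DMSO skin, with adjusted p of 0.0016, 0.0041 and 0.042 by edgeR. Irf4 held in all 19 settings, Tfeb was lost with the sex term, and Tfap2b held in 10. Foxd3 was lost without any 1 of the 4 IMQ libraries, and Tfap2a held in 10 settings. Pax3, which acts with SOX10 on Mitf, did not pass with IMQ (1.56 ± 0.74, adjusted p = 0.17) or DMSO (0.75 ± 0.58, adjusted p = 0.36 by edgeR).

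**Figure D5:**
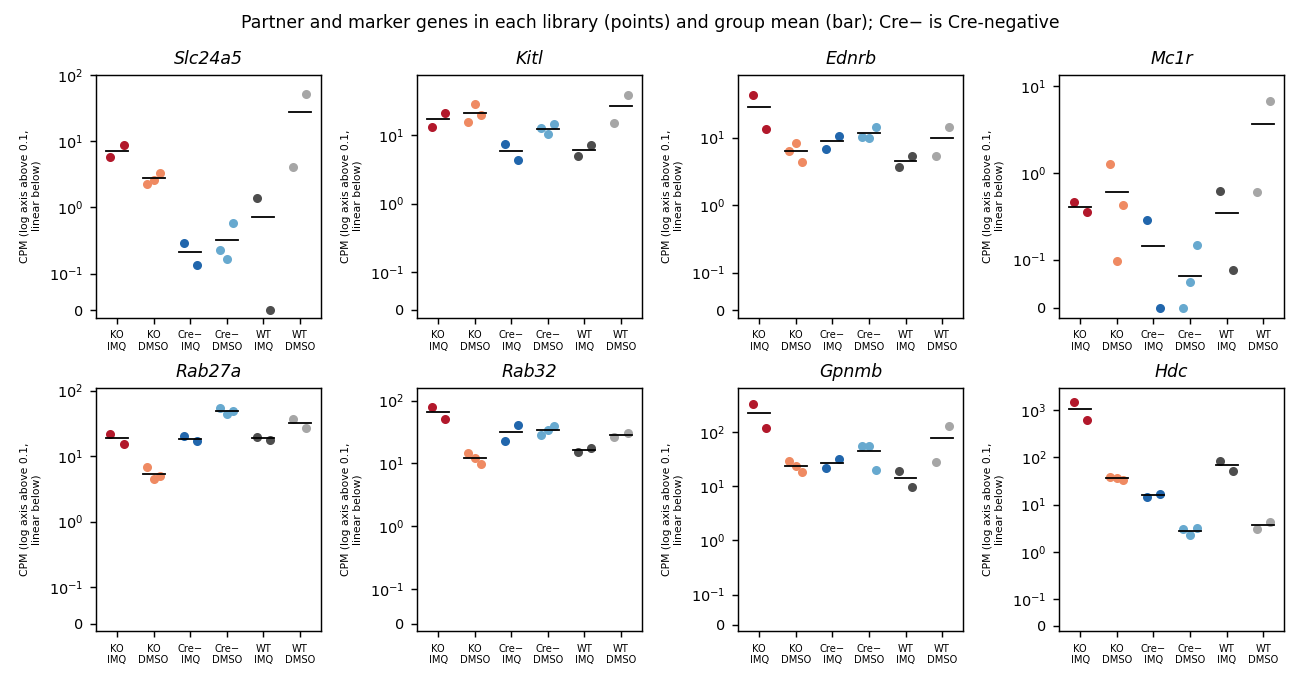
Level in CPM (log axis above 0.1, linear below) of 8 partner and marker genes in every library (points), with the group mean as a bar. Slc24a5 is higher in all 5 KO libraries than in all 5 Cre-negative ones, Rab27a is lowest with KO DMSO, and Hdc reaches 1450 CPM with KO IMQ.

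Genes most like the pigment set were ranked over all tested genes by Pearson correlation of log2 CPM with the mean of Tyr, Tyrp1, Dct, Pmel and Mlana across the 14 libraries. Syt4 (0.97), Fads2 (0.97), Slc24a5 (0.95), Farp1 (0.90), Lamb1 (0.89) and Mcoln3 (0.89) came first, followed by Bgn, Ptgds, Tead2 and Rnf182 at 0.86 to 0.88. Without WT DMSO replicate 2, 4 of these 10 remained among the first 10, Syt4 (0.95), Fads2 (0.94), Slc24a5 (0.92) and Bgn (0.89). By the same measure each of the 5 genes correlated with the mean of the other 4 at 0.91 to 0.98, Slc45a2 with the 5 at 0.93, Kit at 0.71, Sox10 at 0.61 and Mitf at 0.45, or at 0.27 for Mitf without WT DMSO replicate 2. These values describe libraries that share groups and scaling, so they carry no test.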

How the data were processed

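The authors deposited unnormalised read counts, 1 row per gene, made with a QuantSeq forward kit per the labels' protocols and file headers. A further deposited column, summed exon length in bases, was not used for levels. STAR, featureCounts, DESeq2, GRCm38 and GRCm39 are named without roles in the submitters' processing notes, and exon positions are those of GRCm39. The sources used here give no strand or multi-mapping setting. Levels of 3′ tags were not scaled by length.

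Genes were kept with filterByExpr of edgeR 4.0.16 (R 4.3.3). Counts were scaled by TMM and fitted with 1 quasi-likelihood model of the 6 groups over 14 libraries, and 8 contrasts were tested with Benjamini-Hochberg adjustment over all tested genes at 0.05. The SE is the fold change over the root of F. Log2 CPM used a prior count of 2. A group with 0 reads was given a floor of 3 reads over the group, and intervals are exact at 95%. A fold change with the floor leaves out the counting error of the group that has reads, so it is not a lower bound. The intervals cover counting error only, since reads lacking molecular identifiers can be copies of 1 molecule. The procedure was tested on simulated data. The members, the gene lists and the tests were chosen with earlier results of these data known. All members were described, with up to 4 genes of smallest p per list and comparison and fixed partners, the likeness ranking taking the first 10 genes, and markers named beside a result were chosen after their values were seen. Sex was read from Xist and 4 Y-linked genes. Alternatives were DESeq2 1.42.0, limma 3.58.1 voom with sample quality weights, other scalings, other filters on low counts (none, or a CPM over 1 in at least 3 libraries), a fit of the compared groups alone, a replicate block, a sex term and left-out libraries. The series design text speaks of another experiment, a NEDD8 inhibitor on wild-type skin, and the labels of the libraries were followed. Some single markers are not reported here.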

Additional observations from a re-analysis of the deposited data

Results flagged for a closer look

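The response to IMQ differed between KO and Cre-negative skin by edgeR's test of the difference itself (KO minus Cre-negative, log2). Among the pigment genes this held for Kit (3.38), Mitf (2.58) and Sox10 (5.99). Among melanosome genes it held for Rab27a (3.22), Slc7a11 (-6.93), Rab32 (2.54) and Hps1 (2.31), and among receptors for Ednrb (2.55). Among transcription factors it held for Foxd3 (5.03), Tfeb (1.94), Irf4 (2.96) and Tfap2a (-1.59). Among mast cell markers it held for Il1rl1 (6.13) and Hdc (2.38), and among Schwann cell markers for Pmp22 (3.19), Drp2 (4.82) and Ncmap (-2.71). Lists were shown by their 4 genes of smallest p, and 23.6% of all tested genes were past the threshold in this comparison. The Sox10 call held in 7 of 23 settings, and its value rests on Cre-negative IMQ libraries without a Sox10 read. Slc7a11 averaged 594 CPM with KO IMQ and 648 CPM with KO DMSO. In Cre-negative skin it averaged 240 CPM with IMQ and 2.16 CPM with DMSO.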

How the results depend on the processing

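The fold changes of the 9 genes in 8 comparisons were recomputed in up to 25 settings, and no called value changed sign. Counts of called members moved as follows. For KO against Cre-negative skin with IMQ, 7 became 2 with voom, 1 without both libraries highest in 18S (Cre-negative IMQ replicate 2 and KO DMSO replicate 1), and 1 to 9 with single libraries left out. With DMSO, 4 became 1 with library size alone, 0 with a sex term, 2 without those high in 18S and 1 to 5 with single libraries left out. For IMQ in KO skin, 2 became 1 with only the groups compared, 0 with a sex term, 1 without those high in 18S and 0 to 2 with single libraries left out. For IMQ in Cre-negative skin, 2 became 1 with voom, 4 with library size alone, 1 with the stricter filter, 1 with a sex term, 0 without those high in 18S and 0 to 2 with single libraries left out. For IMQ in WT skin, 8 became 3 with voom, 4 with only the groups compared and 3 to 9 with single libraries left out. For the difference of responses, 3 became 5 with no filter and 2 to 3 with single libraries left out. For KO against WT skin, 5 became 8 with no filter, 3 with only the groups compared and 0 to 8 with single libraries left out. For Cre-negative against WT skin, 0 became 6 with DESeq2, 5 with voom, 7 with no filter and 0 to 7 with single libraries left out. Where leaving out a library leaves 1 in a group, that library is assumed to vary like the other groups. Where libraries or groups were left out, fewer libraries were tested, and otherwise the cause was not tested.

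With the replicate block the counts became 6 for KO against Cre-negative skin with IMQ and 2 with DMSO, 0 for IMQ in KO skin, 1 for IMQ in Cre-negative skin, 2 for the difference of responses and 4 for KO against WT skin, and stayed at 8 for IMQ in WT skin and 0 for Cre-negative against WT skin. Whether the replicate numbers pair the libraries was left undecided. Same-numbered deviations from the group mean correlated at -0.32 to 0.49, over 0.1 in 11 of 31 pairs. Different-numbered ones correlated at -0.49 to 0.37, over 0.1 in 13 of 50 pairs. In groups of 2 libraries the 2 deviations mirror each other, so these correlations cannot exclude a pairing.

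Of all tested genes, the share called ran between 9.03% and 45.5% for KO against Cre-negative skin with DMSO (29.6% as reported) and between 4.69% and 21.9% with IMQ (17.9%). Library size alone moved the median of all genes to -0.41 with DMSO and 0.42 with IMQ between KO and Cre-negative skin, to 0.12, -0.63 and -0.76 for IMQ in KO, Cre-negative and WT skin, to 0.84 for the difference of responses and to -0.51 for KO against WT skin. The share of calls that were higher then became 25.9% (47.2% with TMM), 83.1% (64.6%), 88.5% (77.3%), 14.6% (44.7%), 13.2% (44.8%), 87.7% (59.2%) and 20.01% (43.9%) in those comparisons. Depth limits Tyr, Slc45a2 and Sox10, with 303, 132 and 86 reads in all, and Oca2 most.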
